A study of Mus musculus with 36 samples.

Results

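The genes described here are 10 genes for making ribosomal RNA (rRNA) and for the nucleolus, the nuclear body in which ribosomes are assembled. They were chosen by name, and are *Polr1a*, *Polr1b*, *Ubtf*, *Rrn3*, *Taf1c*, *Ncl*, *Npm1*, *Fbl*, *Nop56* and *Nop58*. SIRT7, the deacetylase that part of the mice lacked, is known as a nucleolar protein that promotes rRNA synthesis. All 10 genes were found, of 50712 gene names listed in any of the 3 RNA-seq tables, and all 10 passed the filter on low values in each table.

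RNA polymerase I (Pol I) transcribes the repeated rRNA genes. It is recruited by the DNA-binding factor UBF, the product of *Ubtf*, together with the selectivity factor SL1, which holds TAF1C, and by the bridging factor TIF-IA, the product of *Rrn3*. The transcript is then modified by small nucleolar ribonucleoproteins (snoRNPs) and cut and folded with the help of abundant nucleolar proteins, and cells that grow and divide quickly make more of this machinery. In the bone marrow, pro-B cells give rise to pre-B cells, which divide in a burst and then rest while they rearrange their light chain genes.

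RNA-seq libraries were made from polyadenylated RNA, so the values are levels of the mRNAs for these proteins and rRNA itself was not measured. The first table holds pro-B cells (CD43+) and pre-B cells (CD43-), sorted by surface markers from the bone marrow of 129Sv mice, 2 wild-type and 2 *Sirt7-/-*, with 1 library of each stage from each mouse. The second holds *Pax5-/-* B cell progenitors given a retroviral vector that was empty (EV) or expressed wild-type Pax5 (Pax5WT), Pax5K198Q or Pax5K198R, forms in which an acetylated lysine is replaced by glutamine or arginine. The third holds pro-B cells kept in culture, either wild-type with EV or *Sirt7-/-* with EV, Pax5WT or Pax5K198R. Each group had 2 libraries.

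The 8 groups with a vector were grown on mitomycin C-inactivated OP9 feeder cells with IL-7, SCF and FLT3-L, and the sorted cells were not. *Sirt7-/-* is a germline deletion carried by every cell of the mouse, and the vectors add Pax5 at levels of their own. The labels call the *Pax5-/-* cells cultured bone marrow pro-B cells, whereas the study's methods describe fetal liver *Pax5-/-* progenitors, on the C57BL/6 background. The study's methods say that RNA-seq and ChIP-seq replicates came from different days, that a replicate in experiments with mice is 1 animal and that the ChIP-seq replicates are biological. They do not say whether the 2 cultured RNA-seq replicates of a group came from separate animals or from 1 line, so their p-values measure the spread between these libraries. The counts of genes passing in the cultured tables are also given from a fit with the replicate number as a block.

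Checks on the sorted libraries bear on the results from sorted cells below. The cell type label of the 4 sorted libraries of replicate 2 reads pre-B and that of the 4 of replicate 1 reads pro-B, against the sample titles in 4 of 8 libraries. The titles were used. *Kit*, a receptor of early progenitors, had 1529 and 1727 normalized counts in the wild-type libraries titled pro-B and 37.6 and 78.7 in those titled pre-B, and in *Sirt7-/-* cells it had 1967 and 1753 in pro-B and 20.3 and 291 in pre-B. *Il2ra*, a marker of pre-B cells, lay between 1593 and 3760 in the 4 libraries titled pro-B and between 16329 and 26038 in those titled pre-B. *Kit* and *Il2ra* thus followed the titles in 8 of 8 libraries. *Igkc*, a light chain gene also listed as a pre-B marker, did not, with 234970 and 550270 normalized counts in wild-type and 439260 and 387070 in *Sirt7-/-* libraries titled pro-B and 215430 to 269170 in the 4 titled pre-B. The *Sirt7-/-* pre-B library of replicate 2 stood apart from its partner, with 3838 normalized counts of *Dntt*, an enzyme of pro-B cells, against 423, and with a sum over 6 erythroid markers of 72024 against 8658, led by the globin gene *Hba-a1* at 22303. The *Sirt7-/-* pro-B library of the same mouse also had a high erythroid sum, 47744, and the other 5 sorted libraries lay between 5803 and 16280. The main values that rest on this pre-B library are also given without it.

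The sorted libraries held 50004827 to 55536608 reads assigned to genes. In *Pax5-/-* cells normalized counts summed to 28865461 to 30520853 per library, and in the third table to 27814214 to 30160880. The 10 genes took 0.179% and 0.182% of all counts in wild-type pro-B cells, 0.188% and 0.208% in those of *Sirt7-/-* mice, and at the pre-B stage 0.0845% and 0.0909% with *Sirt7*, against 0.0890% and 0.105% without it. In the cultured tables they took 0.341% to 0.598%.

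Within wild-type pro-B cells the levels per kilobase, over the union of the exons of all protein-coding transcripts of a gene, covered a 30.4-fold range. *Npm1*, which encodes the nucleolar chaperone nucleophosmin, was first with 11924 normalized counts per kilobase, followed by *Fbl* with 8820, *Ncl* with 3297, *Nop56* with 2619, *Ubtf* with 1361, *Rrn3* with 832 and *Taf1c* with 537. The last in order were *Polr1b* with 422, *Polr1a* with 415 and *Nop58* with 392, and each of these overlapped its neighbour in its 2 libraries. The order rests on that length, which is 9706 bases for *Nop58* and 8605 for *Ncl* against 2031 for *Npm1*. Before the division *Ncl* was first, with a mean of 28369 normalized counts, and *Nop58*, with 3803, lay above *Rrn3*, *Polr1b* and *Taf1c*. In wild-type pre-B cells *Npm1* and *Fbl* still led, with 4665 and 3054 per kilobase, but *Ubtf* came next with 1696, its libraries overlapping those of *Nop56* at 1520, and *Ncl* followed with 1172. In *Pax5-/-* cells with EV the order was *Npm1* with 24751, then *Ncl* and *Nop56* with 6112 and 6071, whose libraries overlapped, then *Fbl* with 5231, and *Taf1c* came last with 294.

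Transcripts of 7 of the 10 genes were below their pro-B level in pre-B cells of both genotypes: both Pol I subunits, the 2 abundant nucleolar proteins and the 3 snoRNP core proteins. The initiation factors went otherwise, with *Taf1c* higher in both genotypes, *Ubtf* higher in wild-type cells and *Rrn3* nearly level. In wild-type mice 9 of 10 passed the test, 7 lower and 2 higher, where 40.2% of all 17649 genes tested passed, 22% lower and 18.1% higher. In *Sirt7-/-* mice 8 of 10 passed, 7 lower and 1 higher, where 35.7% of all genes passed, 19.2% lower and 16.5% higher. The median log2 change over the 10 genes was -1.04 and -0.93, and that over all genes tested was -0.04 in both. The libraries of the 2 stages did not overlap in 9 of 10 genes in wild-type and 10 of 10 in *Sirt7-/-* mice, where 72.6% and 69.8% of all genes did not. In bulk RNA, fewer cells of a type and less RNA per cell cannot be told apart.

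**Figure D1:**
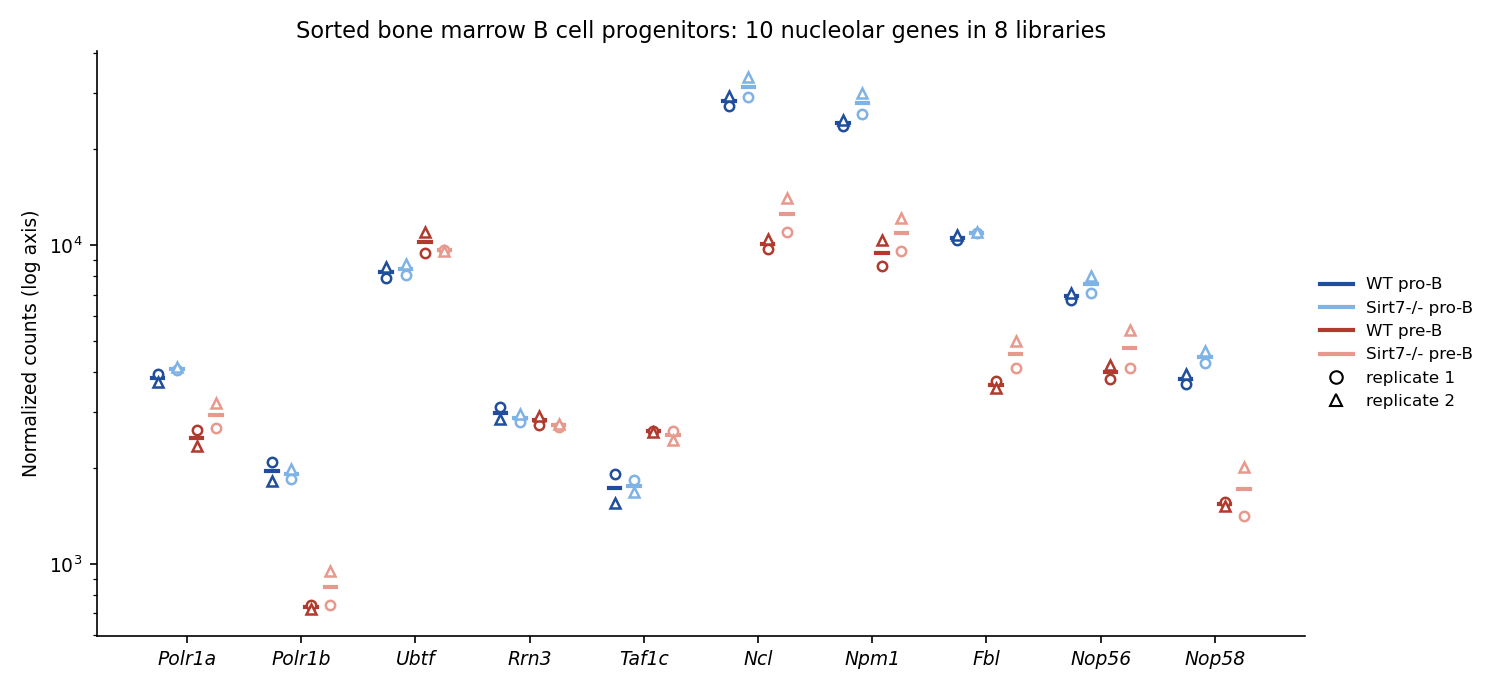
Normalized counts of the 10 genes in the 8 sorted libraries, on a log axis, with each point 1 library and the colours marking genotype and stage. *Ncl*, *Npm1*, *Fbl* and *Nop58* lie lower in all 4 pre-B libraries than in all 4 pro-B libraries, whereas *Rrn3* lies in one band from 2692 to 3102.

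*Polr1a* encodes the largest subunit of Pol I, which holds the catalytic centre together with the subunit encoded by *Polr1b*. The gene shares exon sequence with *Gm26628* on the other strand, whose level was not read here. *Polr1a* (chr6:71909053-71984935, plus strand, mm10) had 3940 and 3718 normalized counts in pro-B cells of wild-type mice and 2626 and 2351 in pre-B cells of the same mice. In *Sirt7-/-* mice it had 4046 and 4134 in pro-B cells, against 2669 and 3200 in pre-B cells. All 4 pre-B libraries were thus below all 4 pro-B libraries. The log2 change from pro-B to pre-B was -0.62 ± 0.12 (SE) in wild-type cells (limma, adjusted p = 0.00588), a level 1.54-fold lower, and -0.48 in *Sirt7-/-* cells (adjusted p = 0.0184). The *Sirt7-/-* call was lost without the pro-B library of either replicate or the pre-B library of replicate 1 (adjusted p = 0.0708 to 0.0852).

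*Polr1b* (chr2:129100995-129126594, plus strand) fell further. Its wild-type libraries had 2088 and 1823 normalized counts in pro-B and 747 and 723 in pre-B cells, and its *Sirt7-/-* libraries had 1846 and 1985 in pro-B and 742 and 952 in pre-B cells. No pre-B library reached 1000 and no pro-B library was below 1800. The log2 change was -1.41 ± 0.15 in wild-type cells (limma, adjusted p = 0.000666; 2.65-fold lower) and -1.19 in *Sirt7-/-* cells (adjusted p = 0.00182).

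*Ubtf* (chr11:102304560-102319742, minus strand) had 7906 and 8519 normalized counts in wild-type pro-B and 9473 and 10998 in wild-type pre-B cells. The *Sirt7-/-* libraries had 8055 and 8735 in pro-B and 9671 and 9575 in pre-B cells, so the stages did not overlap in either genotype. The log2 change of 0.31 ± 0.10 passed in wild-type cells (limma, adjusted p = 0.0422), and that of 0.20 in *Sirt7-/-* cells did not (adjusted p = 0.166). The wild-type call was lost in 7 of the 8 fits that left out 1 library each.

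*Rrn3* (chr16:13780708-13814839, plus strand) encodes the factor that ties Pol I to the promoter. It had 3102 and 2856 normalized counts in wild-type pro-B and 2737 and 2914 in wild-type pre-B cells, which overlapped, and 2783 and 2965 in *Sirt7-/-* pro-B and 2692 and 2751 in *Sirt7-/-* pre-B cells. The log2 change was -0.08 ± 0.09 in wild-type cells (limma, adjusted p = 0.563), with a 95% interval from -0.30 to 0.15, and -0.08 in *Sirt7-/-* cells (adjusted p = 0.557).

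The 250 bases before the RefSeq start of *Rrn3* (chr16:13780449-13780698, GRCm38.p6, plus strand) are shown because they hold CACGTG, the E-box to which *Myc* family proteins bind, 215 and 48 bases before the start, in capitals:
Rrn3: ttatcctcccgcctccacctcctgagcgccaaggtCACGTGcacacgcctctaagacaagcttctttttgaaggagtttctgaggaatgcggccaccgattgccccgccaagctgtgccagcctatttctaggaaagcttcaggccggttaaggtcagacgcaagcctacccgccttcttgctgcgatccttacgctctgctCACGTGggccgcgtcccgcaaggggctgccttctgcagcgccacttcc

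Of the 10 genes 8 were found in the promoter table, with 14 promoters between them. Of these 14 only that of *Rrn3* holds the letters in that window, where 6.02% of all 32851 promoters hold them. They read the same on both strands, and a match is a description of the letters and not of a bound factor. *Npm1* and *Fbl* have no entry in the table.

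*Taf1c* (chr8:119597871-119605222, minus strand) was the gene that rose most. It had 1918 and 1556 normalized counts in wild-type pro-B and 2611 and 2601 in wild-type pre-B cells, and 1840 and 1679 in *Sirt7-/-* pro-B and 2613 and 2455 in *Sirt7-/-* pre-B cells. The 4 pre-B libraries were all higher, by a log2 change of 0.59 ± 0.13 in wild-type (limma, adjusted p = 0.00984; 1.51-fold) and 0.53 in *Sirt7-/-* cells (adjusted p = 0.018). The wild-type call was lost without the pro-B library of replicate 2 (adjusted p = 0.0537), and the *Sirt7-/-* call without the pro-B library of either replicate or the pre-B library of replicate 1 (adjusted p = 0.0502 to 0.0961). *Taf1c* overlaps exons of *Dnaaf1* on the other strand, which had 0 to 12.03 normalized counts in all tables, and whether counting used the strand is not given in the sources used here.

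*Ncl* encodes nucleolin, an abundant RNA-binding protein of the nucleolus. Its libraries (chr1:86344719-86359400, minus strand) had 27302 and 29435 normalized counts in wild-type pro-B and 9717 and 10454 in wild-type pre-B cells. In *Sirt7-/-* mice they had 29076 and 33581 in pro-B and 10977 and 14042 in pre-B cells. The gap between the stages was wider than the spread within any group, at a log2 change of -1.49 ± 0.13 in wild-type (limma, adjusted p = 0.000372; 2.81-fold lower) and -1.33 in *Sirt7-/-* cells (adjusted p = 0.000817).

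*Npm1* (chr11:33152287-33163206, minus strand) had 23675 and 24759 normalized counts in wild-type pro-B and 8604 and 10346 in wild-type pre-B cells, and 25822 and 29966 in *Sirt7-/-* pro-B and 9579 and 12178 in *Sirt7-/-* pre-B cells. Each pre-B library was below each pro-B library, and the log2 change was -1.36 in both genotypes, with an SE of 0.15 (limma, adjusted p = 0.000685 and 0.00103).

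*Fbl* encodes fibrillarin, the methyltransferase of the C/D box snoRNPs, which methylate rRNA at sites chosen by their guide RNAs. It had the largest fall of the 10 in wild-type cells. Its libraries (chr7:28169710-28179269, plus strand) had 10380 and 10734 normalized counts in wild-type pro-B and 3748 and 3564 in wild-type pre-B cells, and 10934 and 10966 in *Sirt7-/-* pro-B and 4132 and 5012 in *Sirt7-/-* pre-B cells. The log2 change was -1.53 ± 0.11 in wild-type (limma, adjusted p = 0.000188; 2.89-fold lower) and -1.27 in *Sirt7-/-* cells (adjusted p = 0.000452). It was the one gene of the 10 that passed with an absolute change of 1.5 or more in wild-type cells, where 13.9% of all genes did, and none did in *Sirt7-/-* cells, where 10.2% did.

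*Nop56* and *Nop58* encode the pair of core proteins that hold fibrillarin in these particles. *Nop56* (chr2:130274430-130279313, plus strand) had 6718 and 7088 normalized counts in wild-type pro-B and 3793 and 4221 in wild-type pre-B cells, and 7061 and 7999 in *Sirt7-/-* pro-B and 4108 and 5407 in *Sirt7-/-* pre-B cells. *Nop58* (chr1:59684971-59719044, plus strand) had 3671 and 3935 in wild-type pro-B and 1566 and 1521 in wild-type pre-B cells, and 4267 and 4673 in *Sirt7-/-* pro-B and 1414 and 2022 in *Sirt7-/-* pre-B cells. Both genes were lower in each pre-B library than in each pro-B library. In wild-type cells the log2 change was -0.79 ± 0.15 for *Nop56* (limma, adjusted p = 0.00551) and -1.30 ± 0.17 for *Nop58* (adjusted p = 0.00128), and in *Sirt7-/-* cells it was -0.67 (adjusted p = 0.0123) and -1.40 (adjusted p = 0.00151). The *Sirt7-/-* call of *Nop56* was lost without the pro-B library of replicate 2 (adjusted p = 0.0722). The gene bodies of *Nop56* and *Nop58* hold 5 and 4 annotated snoRNA genes and that of *Ncl* holds 3, of which 1, *Gm23187* in *Nop56*, overlaps an exon of its protein-coding transcripts. *Nop56* also shares exon sequence with *Idh3b* on the other strand, which was itself expressed, at 5841 to 7074 normalized counts in the sorted libraries.

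The stretch of *Nop56* at chr2:130274617-130274800 (GRCm38, plus strand, 184 bases, 64.7% G or C) is shown because Pax5 peaks were called over it with every form of Pax5, as described with the peaks. Capitals mark a coding exon of 90 bases, which holds CACGTG 1 time:
Nop56: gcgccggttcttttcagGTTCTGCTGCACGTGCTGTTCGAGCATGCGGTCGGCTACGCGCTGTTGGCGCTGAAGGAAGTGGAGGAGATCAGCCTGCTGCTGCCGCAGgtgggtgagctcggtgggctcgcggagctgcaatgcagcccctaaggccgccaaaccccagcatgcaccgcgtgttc

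Each mouse gave both stages, so that the change can be read within a mouse. Over the 10 genes the median log2 change lay between -1.05 and -0.81 in the 4 mice, both of these in *Sirt7-/-* mice. Without the *Sirt7-/-* pre-B library of replicate 2 the same 8 genes passed in *Sirt7-/-* cells, with a median of -1.12. The difference between the genotypes in the stage change was tested for each gene as an interaction. None of the 10 genes passed, where 1 gene of 17649 (0.00567%) did, and none of the 10 had an unadjusted p under 0.05, where 5.43% of all genes did. Values ran from -0.12 for *Ubtf* to 0.26 for *Fbl* (limma, lowest adjusted p = 0.94), with 95% intervals between -0.66 and 0.73 and a median of 0.06. Without the *Sirt7-/-* pre-B library of replicate 2 they ran from -0.36 for *Nop58* to 0.12 for *Fbl*, with a median of -0.02, and without that of replicate 1 the median was 0.22. In the fit with edgeR 1 gene passed and with DESeq2 101, and none was among the 10.

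**Figure D2:**
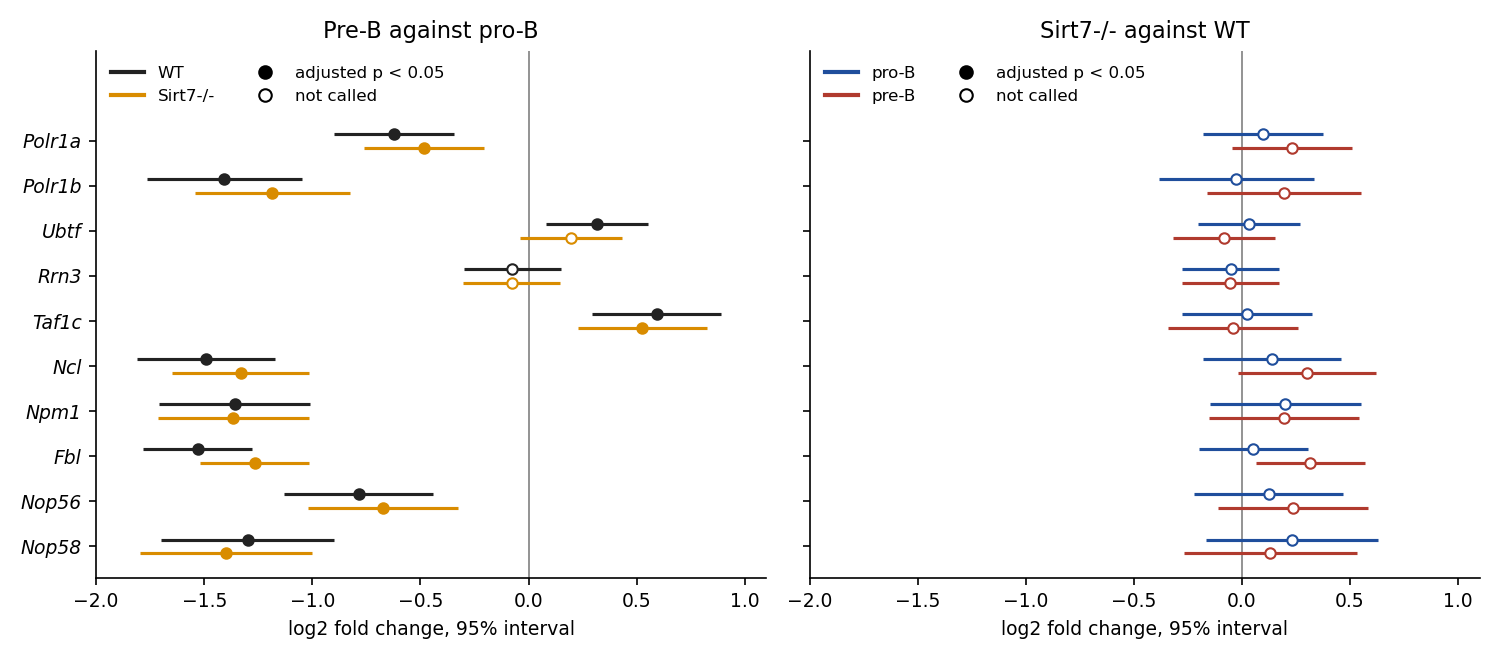
Log2 fold change of each of the 10 genes with its 95% interval, for pre-B against pro-B cells in each genotype (left) and for *Sirt7-/-* against wild-type cells at each stage (right), with filled points passing an adjusted p of 0.05. On the left 7 genes lie well below 0 in both genotypes and *Taf1c* above it, and on the right the values lie between -0.09 and 0.32 with no filled point.

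The other genes of the pathway were taken from lists of Pol I subunits, initiation and termination factors, snoRNP proteins, small subunit processome, large subunit assembly, rDNA chromatin and growth regulators, in all 88 tested genes outside the 10. *Ncl* and *Npm1* are in none of these lists. In the counts over lists, lower and higher mean lower or higher in pre-B cells at an adjusted p under 0.05. In wild-type cells 51 of the 88 passed as lower and 4 as higher, where 22% and 18.1% of all genes did, with a median log2 change of -0.48 against -0.04 over all genes tested. In *Sirt7-/-* cells 52 passed as lower and 3 as higher, where 19.2% and 16.5% of all genes did, with a median of -0.50 against -0.04. Without the *Sirt7-/-* pre-B library of replicate 2 the counts in *Sirt7-/-* cells were 48 and 3.

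Of 7 other genes in the snoRNP list, which also takes in *Nolc1* and *Tcof1*, 7 passed as lower in wild-type and 6 in *Sirt7-/-* cells. The gene that did not pass was *Tcof1* (log2 change -0.23, limma, adjusted p = 0.13). Among those that passed were *Nhp2*, *Dkc1* and *Gar1*, components of the H/ACA particles that guide pseudouridylation, at log2 changes of -1.41, -1.18 and -1.13 in wild-type cells. Of 11 other Pol I subunits, several of them shared with other polymerases, 6 passed as lower in wild-type and 5 in *Sirt7-/-* cells and none passed as higher. *Cd3eap*, a subunit found only in Pol I, had 471 and 518 normalized counts in wild-type pro-B and 98.3 and 106 in wild-type pre-B cells, a log2 change of -2.26 ± 0.18 (limma, adjusted p = 0.000283). It had 485 and 564 in *Sirt7-/-* pro-B and 130 and 143 in *Sirt7-/-* pre-B cells.

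Of 5 other initiation and termination factors 2 passed as higher and none as lower in wild-type cells, where *Taf1d*, a subunit of SL1, had a change of -0.40 (limma, adjusted p = 0.0728). *Tbp*, the TATA-binding protein that SL1 shares with the initiation factors of other polymerases, rose from 3434 and 3659 normalized counts in pro-B to 5248 and 5977 in pre-B cells (log2 change 0.66 ± 0.11, limma, adjusted p = 0.00312). *Ttf1*, the terminator protein, rose in both genotypes, by 0.42 in each. In *Sirt7-/-* cells *Ttf1* passed as higher and *Taf1d* as lower, by 0.62, and *Tbp* had a change of 0.13 that did not pass.

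Of 28 small subunit processome genes 18 passed as lower in wild-type and 20 in *Sirt7-/-* cells and none passed as higher. Of 30 genes of large subunit assembly 15 and 18 passed as lower and 1 as higher, the helicase gene *Ddx54*, with 11899 and 12153 normalized counts in wild-type pro-B and 18053 and 18863 in pre-B cells. *Gnl3*, which encodes nucleostemin, had the largest fall of the list in wild-type cells, from 2860 and 2956 in pro-B to 773 and 771 in pre-B cells (log2 change -1.91 ± 0.22, limma, adjusted p = 0.00082). In *Sirt7-/-* cells *Rrp1b* had the largest fall of that list, from 1861 and 2211 to 482 and 865 (-1.65 ± 0.27, adjusted p = 0.00422).

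Of 5 rDNA chromatin genes 3 passed as lower and 1 as higher in wild-type cells, and 1 as lower and 1 as higher in *Sirt7-/-* cells. The gene that passed as higher in both was *Baz2a*, which encodes a subunit of the complex that silences rRNA genes. It had 20435 and 17904 normalized counts in wild-type pro-B and 41759 and 39481 in pre-B cells, and 15940 and 15429 in *Sirt7-/-* pro-B and 34514 and 30545 in *Sirt7-/-* pre-B cells. Its log2 change was 1.09 ± 0.10 and 1.05 ± 0.10 (limma, adjusted p = 0.000367 and 0.000628).

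*Myc*, a transcription factor that drives ribosome production, had 7753 and 5040 normalized counts in wild-type pro-B and 552 and 449 in wild-type pre-B cells, and 5481 and 7340 in *Sirt7-/-* pro-B and 983 and 1902 in *Sirt7-/-* pre-B cells. The log2 change was -3.65 in wild-type cells (limma, adjusted p = 0.000441) and -2.21 in *Sirt7-/-* cells (adjusted p = 0.00372), and the difference between these, 1.43, did not pass (adjusted p = 0.862). Without the *Sirt7-/-* pre-B library of replicate 2 these values were -2.69 in *Sirt7-/-* cells (adjusted p = 0.00262) and 0.96 for the difference (adjusted p = 0.822). *Mycn* fell by 1.51 in wild-type cells (adjusted p = 0.0146) and had a change of -0.77 in *Sirt7-/-* cells (adjusted p = 0.135).

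**Figure D3:**
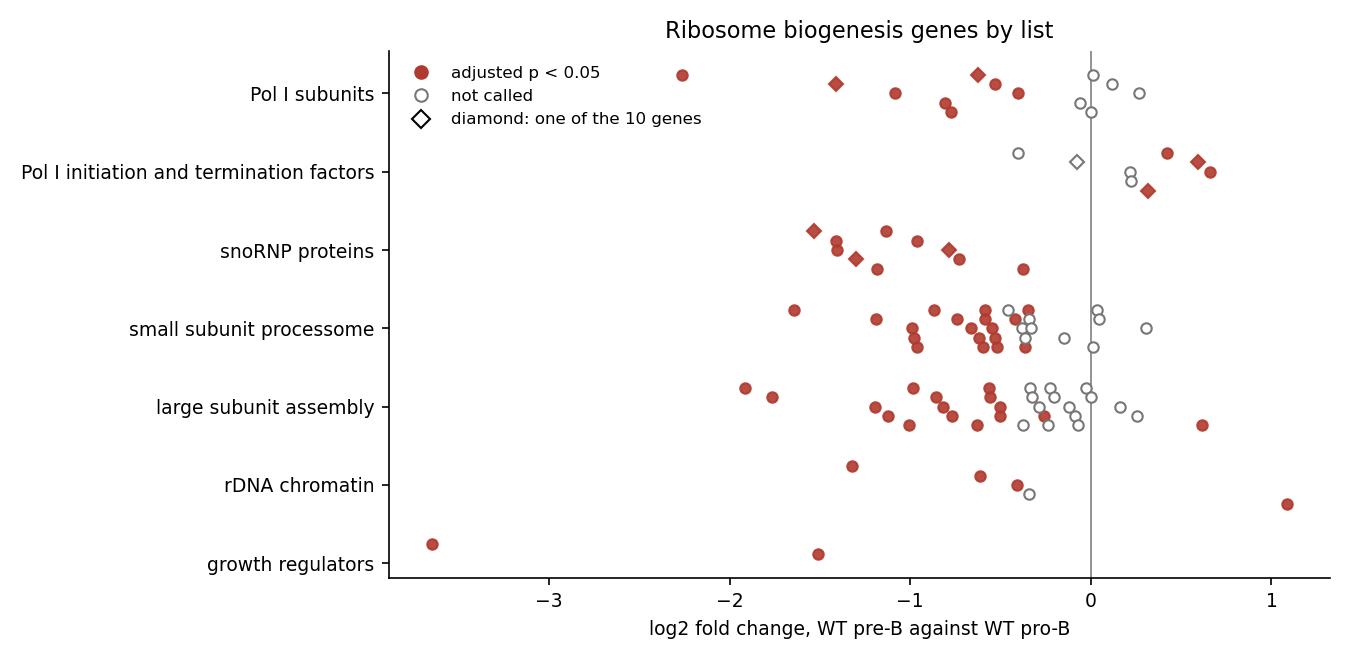
Log2 change from wild-type pro-B to wild-type pre-B cells of every tested gene in the 7 lists of ribosome production, 1 point a gene, with filled points passing an adjusted p of 0.05 and diamonds marking the members of a list among the 10 genes (*Ncl* and *Npm1* are in none). All 10 genes of the snoRNP list lie below 0, the 4 filled initiation and termination factors lie above it, and *Myc* is farthest left at -3.65.

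Other lists moved with the stage too. All 14 cell cycle genes passed as lower in both genotypes, with median log2 changes of -1.69 and -1.10. Their sum was 363630 and 382270 normalized counts in wild-type pro-B and 98272 and 136220 in wild-type pre-B cells, and 335640 and 361830 in *Sirt7-/-* pro-B and 132880 and 198800 in *Sirt7-/-* pre-B cells, led by *Mki67* with 31857 to 128260. The part of cell division in the change of the 10 genes was not tested. A sum over 6 B lineage markers went from 331670 and 325590 in wild-type pro-B to 680040 and 571490 in pre-B cells. In *Sirt7-/-* cells that sum went from 353640 and 325390 to 650240 and 570840. Of 6 pro-B markers 5 passed as lower and of 6 pre-B markers 5 as higher in each genotype, and *Il7r* of the first list and *Igkc*, the most abundant of the second, did not pass.

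Of 8 T cell markers 7 passed as lower in pre-B cells with *Sirt7* and 6 in those without it. Their sum was 6715 to 7294 in pro-B and 3148 to 3832 in pre-B libraries, led by *Lck*, which B cells also express at this stage, and *Cd3e* and *Cd3g* were at 0 in all 4 pre-B libraries. Of 4 plasma cell markers *Jchain* passed as lower and *Sdc1* as higher in each genotype, with sums of 25866 to 65131 in pro-B and 8610 to 9795 in pre-B libraries. Of 6 myeloid markers 2 and 3 passed as lower and 1 as higher, of 6 erythroid markers 1 passed as lower, *Klf1*, and of 4 stroma markers tested none passed, with a sum over the whole list of at most 274. The part of these cell types in the change of the 10 genes was not tested.

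To ask whether the loss of SIRT7 changed these transcripts, *Sirt7-/-* cells were compared with wild-type cells of the same stage. At the pro-B stage *Sirt7* itself had 2692 and 2533 normalized counts in wild-type mice, against 363 and 366 in *Sirt7-/-* mice, and at the pre-B stage 5613 and 5219, against 1066 and 821. It was thus lower in all 4 *Sirt7-/-* libraries, by a log2 change of -2.84 and -2.53 (limma, adjusted p = 0.00292 and 0.00931), and the reads left over were not placed within the gene here. From pro-B to pre-B cells *Sirt7* rose, by 1.05 in wild-type cells, opposite to 7 of the 10 genes.

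None of the 10 genes passed at either stage. In pro-B cells 11 of 17649 genes passed (0.0623%), and in pre-B cells 15 did (0.085%). With edgeR 10 and 5 genes passed and with DESeq2 126 and 720, and none of the 10 was among them. In pro-B cells no gene of the 10 had an unadjusted p under 0.05, where 5.94% of all genes did, and log2 changes ran from -0.05 for *Rrn3* to 0.23 ± 0.17 for *Nop58*, with a median of 0.07 against 0.00 over all genes tested. Without the *Sirt7-/-* pro-B library of replicate 2, which had the high erythroid sum, they ran from -0.10 for *Rrn3* to 0.17 for *Nop58*, with a median of 0.04, and without that of replicate 1 the median was 0.10. The 95% intervals of the 10 genes lay between -0.39 and 0.63. *Polr1a*, *Npm1*, *Fbl* and *Nop58* were higher in both *Sirt7-/-* libraries than in both wild-type ones, where 39.3% of all genes had groups that did not overlap.

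In pre-B cells *Fbl* alone had an unadjusted p under 0.05, where 13.6% of all genes did. There 7 of the 10 values were above 0, with a median of 0.19 against 0.02 over all genes tested. They were led by *Fbl* at 0.32 ± 0.11 (limma, unadjusted p = 0.0207, adjusted p = 0.265) and *Ncl* at 0.30 ± 0.13 (adjusted p = 0.393). Without the *Sirt7-/-* pre-B library of replicate 2 they were 0.18 and 0.12. *Fbl*, *Ncl* and *Polr1a* were higher in both *Sirt7-/-* libraries than in both wild-type ones, where 41.4% of all genes had groups that did not overlap. The median rested on the library that stood apart, since it was 0.02 without the *Sirt7-/-* pre-B library of replicate 2 and 0.37 without that of replicate 1. That library also had the highest cell cycle sum of the 4 pre-B libraries, 198800, and the cell cycle list had a median of 0.50, or 0.21 without that library, with none of its 14 genes passing in either fit. The part of that list in the values of the 10 genes was not tested. Of the 88 other genes of ribosome production none passed at either stage, with medians of 0.06 and 0.02. In pre-B cells *Myc*, at 552 and 449 with *Sirt7* and 983 and 1902 without it, had a log2 value of 1.46 that did not pass (limma, adjusted p = 0.165), and 0.98 without the library that stood apart (adjusted p = 0.348).

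Pax5 binds DNA in B cell progenitors and sets the B cell programme. To ask whether Pax5 and its lysine mutants changed these genes, *Pax5-/-* cells with each form were compared with EV and with each other. Pax5 had 2201 and 2103 normalized counts with EV, 6458 and 6152 with Pax5WT, 8918 and 8963 with Pax5K198Q and 21162 and 16609 with Pax5K198R, so the forms also differed in level.

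None of the 10 genes passed in any of these 5 comparisons. Against EV, 3.25% of 13345 genes tested passed with Pax5WT, 0.922% with Pax5K198Q and 9.92% with Pax5K198R. Against Pax5WT, 0.0225% passed with Pax5K198Q and 2.87% with Pax5K198R. With the replicate block the same 5 shares were 10.1%, 2.72%, 21.2%, 0.217% and 7.52%, and again none of the 10 genes passed. None of the 10 genes had an unadjusted p under 0.05 in any of the 5, where 14.4%, 7.86%, 22.9%, 3.46% and 12.7% of all genes did, and their medians lay between -0.04 and 0.09. Leaving out 1 library at a time moved these medians to between -0.09 (Pax5WT against EV, without Pax5WT replicate 1) and 0.17 (Pax5K198R against EV, without Pax5K198R replicate 2). The 3 comparisons with EV share its libraries. The 2 libraries of a group did not overlap those of the other in 2, 1, 3, 2 and 3 of the 10 genes, where 42.6%, 34.2%, 46.8%, 28.7% and 38.4% of all genes did not.

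*Ncl* was the farthest from 0, with 49305 and 55885 normalized counts with EV and 60447 and 62544 with Pax5K198R. Both Pax5K198R libraries were higher, but the log2 change of 0.23 ± 0.12 did not pass (limma, adjusted p = 0.314). With Pax5WT it had 55094 and 57011 and with Pax5K198Q 49421 and 58721, both overlapping EV. *Nop58* had 6820 and 7689 with EV and 8893 and 7998 with Pax5K198R, at 0.22 ± 0.13 (adjusted p = 0.395).

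*Nop56*, the gene with the smallest standard error, had 16112 and 15895 normalized counts with EV, 15187 and 14493 with Pax5WT, 15342 and 15289 with Pax5K198Q and 16321 and 15212 with Pax5K198R. Its log2 change against EV was -0.11, -0.06 and -0.02, with 95% intervals that stayed between -0.30 and 0.17. *Rrn3* lay between 2351 and 2790 and *Ubtf* between 8404 and 9885 in all 8 libraries.

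Other genes varied more between replicates. *Npm1* had 42860 and 57680 with EV and 42882 and 72290 with Pax5K198R, and it was higher in replicate 2 in 4 of 4 groups, by 0.34 to 0.75 on the log2 scale. *Ncl* and *Fbl* were also higher in replicate 2 in 4 of 4 groups. *Taf1c* was lower in replicate 2 in 4 of 4 groups, by 0.39 to 0.70, with 1121 and 781 with EV, and so were *Polr1a*, *Polr1b* and *Nop56*. The 95% interval of *Taf1c* against EV with Pax5WT ran from -0.71 to 0.61.

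Of the 89 other genes of ribosome production tested in *Pax5-/-* cells, 2 passed with Pax5K198R against EV, where 9.92% of all genes did, and none in the other 4 comparisons. *Mycn* fell from 3129 and 2343 normalized counts with EV to 1150 and 901 with Pax5K198R, a log2 change of -1.41 ± 0.31 (limma, adjusted p = 0.0289). With Pax5WT its value was -0.85 (adjusted p = 0.246) and with Pax5K198Q -0.38 (adjusted p = 1). In the fit with the replicate block *Mycn* also passed as lower with Pax5WT against EV (adjusted p = 0.00396) and with Pax5K198R against Pax5WT (-0.56, adjusted p = 0.0276), and with Pax5K198Q against EV it had an adjusted p of 0.169. Without the block, the call against EV was lost without either EV library or the Pax5K198R library of replicate 2 (adjusted p = 0.0731 to 0.166). *Wdr75*, of the small subunit processome, rose from 3157 and 3000 to 3992 and 4702 (0.49 ± 0.12, adjusted p = 0.0358), a call lost without either EV library, either Pax5WT library or the Pax5K198R library of replicate 2 (adjusted p = 0.07 to 0.161). *Myc* had a value of 0.21 (adjusted p = 0.726). With the replicate block the counts of these 89 genes were 4 with Pax5WT and 10 with Pax5K198R against EV, 2 with Pax5K198R against Pax5WT and 0 in the other 2 comparisons, where 10.1%, 21.2% and 7.52% of all genes passed in the first 3 and 2.72% and 0.217% in the others.

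**Figure D4:**
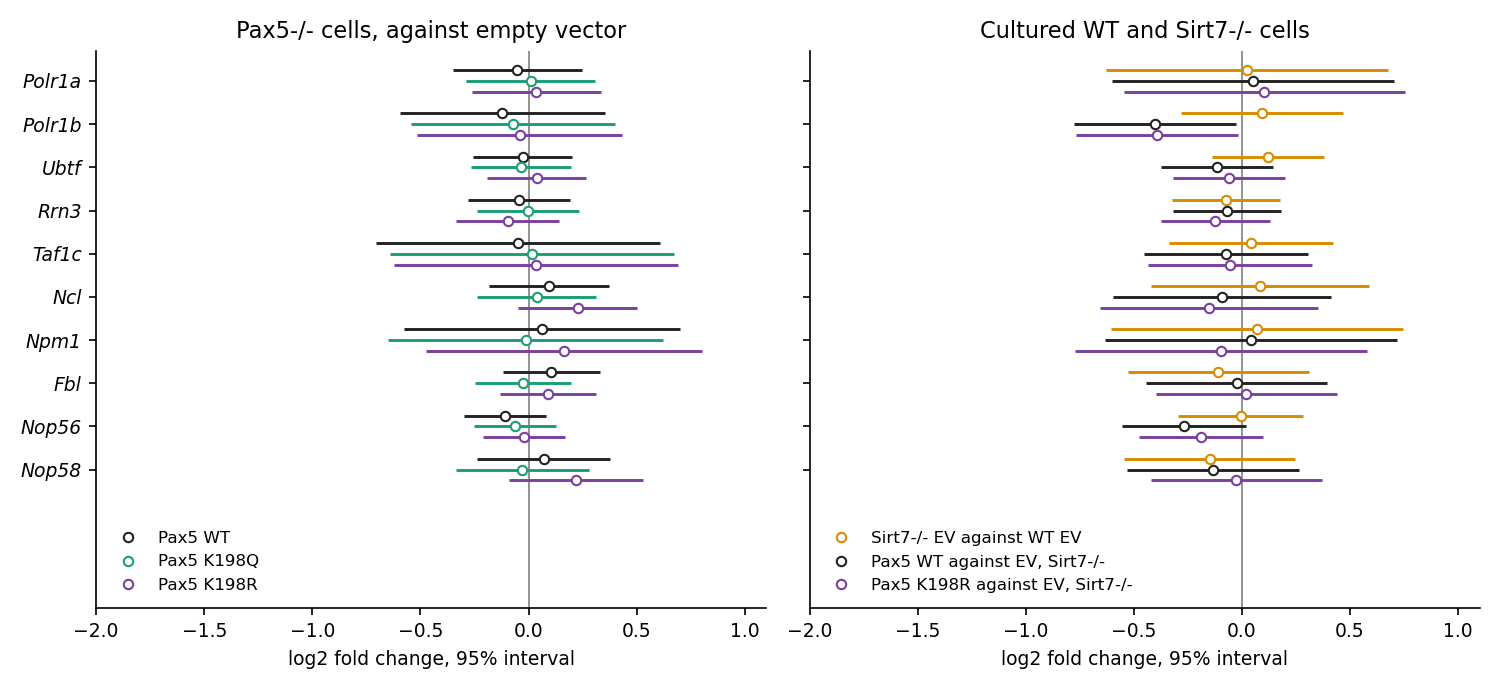
Log2 fold change of each of the 10 genes with its 95% interval in *Pax5-/-* cells with each Pax5 form against EV (left) and in cultured wild-type and *Sirt7-/-* cells (right), with open points marking genes that did not pass. The points on the left lie between -0.12 and 0.23, and on the right *Polr1b* lies lowest, near -0.40, for both Pax5 vectors.

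The third table repeats the comparison of genotypes in culture. *Sirt7* had 1324 and 905 normalized counts in wild-type and 336 and 387 in *Sirt7-/-* cells with EV, a log2 change of -1.60 (limma, adjusted p = 0.0251). None of the 10 genes passed, where 0.557% of 13651 genes tested did, or 2.11% with the replicate block, none had an unadjusted p under 0.05, where 9.68% of all genes did, and none had groups that did not overlap, where 34.6% of all genes did. Values ran from -0.15 ± 0.17 for *Nop58* to 0.12 ± 0.11 for *Ubtf*, with a median of 0.03. The sign of the median rested on single libraries, since it was -0.21 without the wild-type library of replicate 1, 0.15 without that of replicate 2 and -0.06 without the *Sirt7-/-* EV library of replicate 2.

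The wild-type libraries with EV differed widely from each other. *Npm1* had 29640 and 55528 normalized counts in them and 35781 and 50598 in *Sirt7-/-* cells with EV. *Ncl* had 31727 and 49595 in wild-type and 37213 and 47522 in *Sirt7-/-* cells, and *Fbl* had 6999 and 10221 against 7124 and 8634. For *Npm1* the 95% interval of the log2 change ran from -0.61 to 0.74. *Npm1*, *Ncl*, *Fbl*, *Nop58*, *Ubtf* and *Polr1a* were higher in replicate 2 in 4 of 4 groups of this table.

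In *Sirt7-/-* cells Pax5 had a mean of 31554 normalized counts with EV, 43142 with Pax5WT and 42058 with Pax5K198R. Against EV these were log2 changes of 0.47 and 0.43 that did not pass (limma, adjusted p = 0.426 and 0.241). With Pax5WT or Pax5K198R, compared with EV, none of the 10 genes passed, where 0.0366% and 4.83% of all genes did. With the replicate block these shares were 1.96% and 11.6%, and none of the 10 genes passed. *Polr1b* was the one gene with an unadjusted p under 0.05 in each, where 9.91% and 18.4% of all genes had one. It had 2719 and 2131 normalized counts with EV, 1608 and 2064 with Pax5WT and 1730 and 1946 with Pax5K198R, and 2184 and 2332 in wild-type cells with EV. All 4 libraries with a Pax5 vector were below the 4 without one. The log2 change was -0.40 ± 0.16 with Pax5WT (limma, unadjusted p = 0.0391, adjusted p = 0.47) and -0.39 ± 0.16 with Pax5K198R (unadjusted p = 0.0429, adjusted p = 0.248), and both share the EV libraries. Leaving out the EV library of replicate 1 moved these to -0.23 and -0.22 and leaving out that of replicate 2 to -0.58 and -0.57, and with Pax5WT the value was -0.22 without its library of replicate 1 and -0.58 without that of replicate 2. Groups did not overlap in 2 of the 10 genes with Pax5WT (*Polr1b* and *Nop56*, both lower) and in 3 with Pax5K198R (these and *Rrn3*), where 38.7% and 49.6% of all genes did not overlap.

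*Nop56* had 11816 and 11384 normalized counts with EV in *Sirt7-/-* cells, 8941 and 10373 with Pax5WT and 9886 and 10467 with Pax5K198R, at -0.27 (adjusted p = 0.536) and -0.19 (adjusted p = 0.49). The other 8 genes had log2 changes between -0.15 and 0.10 in these 2 comparisons. Of the 89 other genes of ribosome production none passed with Pax5WT and 1 passed with Pax5K198R, where 4.83% of all genes did. This was *Ppan*, which takes part in large subunit assembly. It fell from 3772 and 3313 to 2253 and 2228 (log2 change -0.66 ± 0.10, limma, adjusted p = 0.0125), a call lost without either Pax5K198R library or the EV library of replicate 1 (adjusted p = 0.0695 to 0.0995). With the replicate block 2 and 5 of the 89 passed, where 1.96% and 11.6% of all genes did, all lower, *Ppan* and *Myc* in both. *Myc* varied from 2613 to 16622 over the 8 libraries. Stroma markers, which OP9 feeder cells express, summed to 561.8 to 1634.8 normalized counts in *Pax5-/-* cells and 2060 to 5943 in this table. In *Sirt7-/-* cells they summed to 2101 and 2947 with EV, 3364 and 5943 with Pax5WT and 2477 and 4679 with Pax5K198R. Each sum with Pax5WT or Pax5K198R was thus above that with EV of the same replicate number. The part of these markers in the values above was not tested.

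Chromatin immunoprecipitation with sequencing (ChIP-seq) for Pax5 in *Pax5-/-* cells with each form gave 6 peak lists, 2 for each form, called in each sample against its input. The second list for Pax5K198R carries peak names with a replicate number of 3 and was used as replicate 2. A gene was counted as having a peak where a summit lay within 1000 bases of an annotated start. With Pax5WT 3 and 4 of the 10 genes had one, where 36.1% and 41.5% of 13283 tested genes did. With Pax5K198R 4 and 2 did, where 44.2% and 45.8% of tested genes did, and with Pax5K198Q 1 did in each list, where 15.9% and 16% did. The shares among the 10 genes were near or below those of all genes. With a window of 5000 bases 4 and 5 of the 10 genes had one with Pax5WT and 5 and 3 with Pax5K198R. There 41.1% and 46.6%, and 49% and 51.2%, of tested genes did. At a q-value under 1e-05 the counts were 2 and 4 with Pax5WT and 3 and 2 with Pax5K198R. There 30.4% and 35.2%, and 37.9% and 38.9%, of tested genes did. With Pax5K198Q the count was 1 in each list at both settings, where 18.4% and 18.9%, and 12.4% and 12.5%, did.

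*Nop56* had a peak in all 6 lists. The stretch that the 6 peaks share is the one printed with the gene's values, and it was the one site among the 10 genes that was called with every form. Its fold enrichment over input at the summit was 10.01 and 3.76 with Pax5WT, 4.59 and 5.04 with Pax5K198Q and 6.82 and 11.14 with Pax5K198R. The 2 values with Pax5WT lay on both sides of those with Pax5K198Q, and both values with Pax5K198R were above both with Pax5K198Q, a difference that was not tested. The summits lay between 130274647 and 130274799. The level of *Nop56* mRNA in the same cells was the one described above, with no form passing against EV.

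*Rrn3* had a peak at its start in both Pax5WT lists, at a fold enrichment of 5.65 and 5.31, in the first Pax5K198R list, at 4.09, and in neither Pax5K198Q list. The 250 bases printed with its values lie before its RefSeq start.

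*Taf1c* had a peak at its start with Pax5WT in the first list, at a fold enrichment of 3.22, and with Pax5K198R in the first list, at 6.36. *Ubtf* had one with Pax5WT in the second list, at 4.93, and with Pax5K198R in both, at 3.86 in the first list and at 5.07 and 5.11 at a pair of summits in the second. *Npm1* had one with Pax5WT in the second list, at 4.52. *Polr1a*, *Polr1b*, *Ncl*, *Fbl* and *Nop58* had none within this distance in any list. Each of *Taf1c* and *Npm1* was called in only 1 of the 2 lists of a form. Within 5000 bases of a start, *Polr1a* had peaks in both Pax5WT lists and the second Pax5K198R list, at 3.68 to 5.69. At that distance *Fbl* had one in the first Pax5K198R list, at 4.51.

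**Figure D5:**
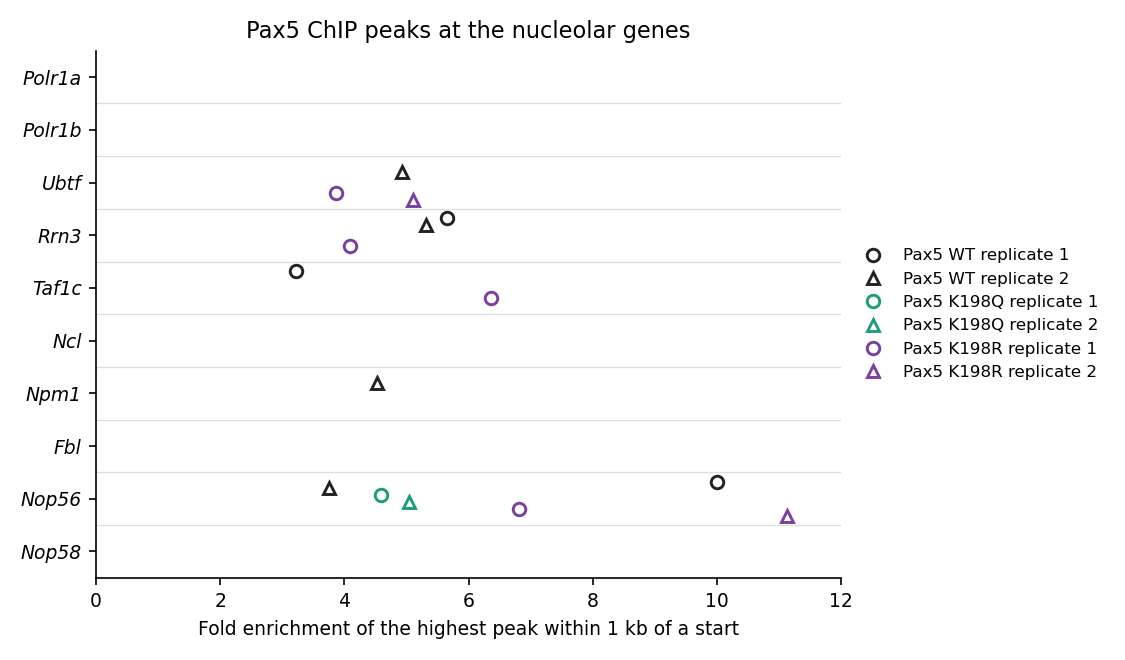
Fold enrichment over input of the highest Pax5 peak within 1000 bases of a start of each of the 10 genes. Each point is 1 gene in 1 peak list, with colours marking the Pax5 form and marker shapes the replicate. *Nop56* has points from all 6 lists, from 3.76 to 11.14, and 5 genes have none.

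Across all 24 libraries the genes whose levels followed the mean of the 10 genes most closely, outside the lists above, were *Exosc1* with a Pearson r of 0.88, *Eif3c* with 0.86, *Ddx27*, *Hnrnpdl*, *Tomm5*, *Eif3g*, *Polr3e*, *Pwp1*, *Sdad1* and *Psme3* with 0.82. These values are over 10575 genes, after each table was centred on its own mean, and are a description, since libraries of a table share a stage, a culture and a normalization. Within single tables the genes just named lay between 0.75 and 0.98 in sorted cells and between 0.84 and 0.96 in the third table. In *Pax5-/-* cells they lay between 0.30 and 0.89, with *Tomm5* at 0.30 and *Pwp1* at 0.36 the lowest. Among the 10 genes, each of which is part of that mean, *Polr1a* followed the mean at 0.79, *Ubtf* at 0.05 and *Taf1c* at -0.30. In the sorted table alone *Taf1c* was at -0.92 and *Ubtf* at -0.78, in *Pax5-/-* cells they were at 0.57 and 0.96, and in the third table at -0.39 and 0.74. Over the 10 genes the values in *Pax5-/-* cells ran from -0.39 for *Npm1* to 0.96 for *Ubtf*.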

How the data were processed

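For RNA-seq the authors quantified transcripts of mm10 with Salmon, correcting for GC bias, summed them per gene through Tximeta and scaled them in DESeq2 by median of ratios, and this is what they deposited. The deposited signal values are thus counts per gene, scaled per library. For the sorted cells, 100% of values were recovered as whole reads (within 0.001 reads), and edgeR 4.0.16 on these called 10, 5, 6795, 5974 and 1 genes for *Sirt7-/-* with wild-type pro-B and pre-B cells, the stages in wild-type and *Sirt7-/-* cells and the interaction. DESeq2 1.42.0 was a further alternative. For the cultured cells recovery of whole reads was not tried, and edgeR and DESeq2 were not run there. For ChIP-seq the authors aligned with Bowtie2, removed duplicates and called peaks with MACS2, and deposited the fold enrichment over input (a ratio) and −log10 of the q-value (deposited as a q-value on that scale). Versions of these tools are not given in the sources used here.

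A gene was tested where 2 or more of the 8 libraries of its table reached 10 normalized counts (17649, 13345 and 13651 genes). Values were fitted as log2(count + 1) with limma 3.58.1 in R 4.3.3, with a variance trend, all 4 groups of a table in 1 fit and Benjamini-Hochberg adjustment over all genes tested, and called at an adjusted p under 0.05. Fold changes are on that scale. Each table was tested only within itself, since the tables were normalized separately. With 2 libraries against 2, an exact test of 1 gene could not reach 0.05, so p-values come from the fit across genes. The sorted stages are paired by mouse, as the labels give 1 mouse number to both stages (correlation of deviations 0.08 in wild-type and 0.16 in *Sirt7-/-* mice). In the cultured tables the methods give different days for replicates but not which libraries share a day, and libraries with the same number deviated together (0.26 to 0.38 and 0.16 to 0.43), so a fit with the replicate block stands beside the main one. The script was run on simulated data with independent libraries, without such shared deviations, and no result here rests on that run.

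The 10 genes and the lists of pathway genes and markers were chosen with earlier results of these data known, and support nothing by themselves. Named are the 10 genes, *Sirt7*, Pax5, *Myc* and *Mycn*, for each comparison up to 3 called list genes with the largest increase and decrease among those with groups that did not overlap, and the 10 genes most like the mean of the 10. *Nhp2*, *Dkc1*, *Gar1*, *Ttf1* and *Taf1d* in wild-type cells were named outside this rule, after their values were seen. So were *Taf1d*, *Tbp* and *Tcof1* in *Sirt7-/-* cells, *Nolc1*, and the overlapping genes *Dnaaf1*, *Idh3b*, *Gm23187* and *Gm26628*. The same holds for the markers *Kit*, *Dntt*, *Il7r*, *Il2ra*, *Igkc*, *Mki67*, *Lck*, *Cd3e*, *Cd3g*, *Jchain*, *Sdc1*, *Klf1* and *Hba-a1*. Positions are those of GENCODE M21 and promoters those of RefSeq, both GRCm38. Input libraries were not used here, and 1 marker is not reported here.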

Additional observations from a re-analysis of the deposited data

How the results depend on the processing

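The counts of the 10 genes passing held within 1.5 times under a pseudocount of 5, no filter on low values, the same total per library, only the groups compared and, for the sorted table, edgeR and DESeq2, and no called gene changed direction. Adding a minimum size of 1.5 on the log2 scale left 1 of the 10 for pre-B against pro-B in wild-type cells (*Fbl*) and 0 in *Sirt7-/-* cells. Leaving out 1 library at a time gave 7 to 9 genes in wild-type and 5 to 8 in *Sirt7-/-* cells, and 0 to 0 in all other comparisons; the count of 5 came without the *Sirt7-/-* pro-B library of replicate 2, where *Polr1a*, *Nop56* and *Taf1c* were lost. Without *Sirt7-/-* pro-B replicate 1 or pre-B replicate 1, *Polr1a* and *Taf1c* were lost. The wild-type call of *Ubtf* also ended with no filter (adjusted p = 0.0608), with the same total (0.0929) and with only the groups compared (0.0844), and in *Sirt7-/-* cells the last setting ended those of *Polr1a* (0.0539) and *Nop56* (0.0514). The causes were not tested. Setting totals equal moved the median of all genes by -0.08 and -0.10 in the 2 stage comparisons.

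With the replicate block, which for the stages and the interaction had 1 term for each of the 4 mice and elsewhere 1 for the replicate number, 9 and 8 of the 10 genes passed, and the block changed no call of the 10 in any comparison. In the other tables, whose replicates were made on different days, libraries with the same number deviated together, and the block moved the count over all genes from 434 to 1343, 123 to 363, 1324 to 2834, 3 to 29 and 383 to 1004 in *Pax5-/-* cells and from 76 to 288, 5 to 268 and 659 to 1588 in the third table, with correlations of deviations of 0.26 to 0.38 and 0.16 to 0.43. For *Sirt7-/-* against wild-type pre-B cells the block on the replicate number moved the count over all genes from 15 to 7, and leaving out 1 library gave 2 to 195.

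The count over all genes, beside which the 10 genes are read, moved more. Fitting only the groups compared changed it from 11 and 15 to 0 and 0 for *Sirt7-/-* against wild-type pro-B and pre-B cells, from 76 to 0 in culture, from 5 to 0 with Pax5WT in *Sirt7-/-* cells and, in *Pax5-/-* cells with Pax5K198R, from 1324 to 673 against EV and from 383 to 40 against Pax5WT, and with Pax5K198Q against Pax5WT from 3 to 7. With no filter it fell from 434 to 260, 123 to 73 and 383 to 231 in *Pax5-/-* cells and from 76 to 44 and 659 to 423 in the third table. DESeq2 gave 126, 720 and 101 where limma gave 11, 15 and 1 for the 2 genotype comparisons and the interaction, and edgeR gave 5 for the second. Leaving out 1 library gave 0 to 14 in pro-B cells, 4700 to 7323 and 3720 to 6054 for the stages, 0 to 14 for the interaction, in *Pax5-/-* cells 89 to 664, 31 to 155 and 567 to 1477 for Pax5WT, Pax5K198Q and Pax5K198R against EV and 0 to 2 and 21 to 573 for Pax5K198Q and Pax5K198R against Pax5WT, and in the third table, for the genotypes, 3 to 73, and 1 to 5 and 63 to 642 for Pax5WT and Pax5K198R against EV. With 2 libraries a group, the 95% intervals of the 10 genes in culture reached from -0.78 to 0.80.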
